A study of Rattus norvegicus with 8 samples.

Results

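The miR-7 family on this array comprised 4 mature products, rno-miR-7a, rno-miR-7b, rno-miR-7a-1* and rno-miR-7a-2*, chosen by name among the non-control features. They made up 4 of the 677 rat miRNAs on the array and were read by 12 of its 1644 probes and 80 of its 13540 non-control features. All 4 passed the filter on dim signals and were among the 238 miRNAs tested. The prefix rno is left out from here on, and names ending in * are the array's names for minor hairpin arms.

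The arrays measured islet RNA of Sprague Dawley rats at 2 ages, labelled with cyanine 3 (1 colour). Of the 8 arrays, 4 came from control rats 10 days old (P10, sex not given in the labels) and 4 from control males 3 months old (adult). Each array is called a biological replicate, without the number of animals behind it, so p-values measure the spread between these samples. The title of the series places the comparison in the maturation of beta cells, the insulin-secreting cells of the islet. In such bulk RNA, a smaller share of cells that express a miRNA and less of it per cell cannot be told apart.

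MicroRNAs are short RNAs that guide Argonaute proteins to messenger RNAs, mainly through bases 2 to 8 of the miRNA, the seed. Each hairpin precursor is cut into a duplex, of which the guide strand is kept and the minor strand is mostly degraded. miR-7 is an old animal miRNA, enriched in neurons and endocrine cells, and among the most abundant miRNAs of the islet. In beta cells it is known as a brake on insulin exocytosis, acting on genes of vesicle fusion, and on mTOR signalling and adult beta-cell proliferation.

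The mature sequences show how the members relate, and they bear on which probes can be told apart. They were found for 4 of 4 members in RefSeq (build GRCr8, while the array design names rn4). The seed is in capitals.
miR-7a: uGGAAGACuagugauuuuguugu
miR-7b: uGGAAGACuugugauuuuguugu
miR-7a-1*: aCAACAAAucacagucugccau
miR-7a-2*: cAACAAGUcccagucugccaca
miR-7a and miR-7b shared the seed GGAAGAC and 22 of 23 bases, the single change being A10U (miR-7a's base, its position from the 5′ end, then miR-7b's base). No other mature miRNA in the RefSeq table held that seed. The minor arms differ in seed from the guides and from each other, and miR-3065-5p shares the seed of miR-7a-1*. With an offset of 1 base they matched at 18 of 21 positions.

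The hairpins show which product belongs to which gene. The mature arms that RefSeq annotates are in capitals.
Mir7-1: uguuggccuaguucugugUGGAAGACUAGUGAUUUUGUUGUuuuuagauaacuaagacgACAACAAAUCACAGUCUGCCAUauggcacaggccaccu
Mir7a-2: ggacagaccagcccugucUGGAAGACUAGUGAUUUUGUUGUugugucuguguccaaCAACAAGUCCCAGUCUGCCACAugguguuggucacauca
Mir7b: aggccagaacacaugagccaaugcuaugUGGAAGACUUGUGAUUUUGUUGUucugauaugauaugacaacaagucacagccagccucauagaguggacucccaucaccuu
The first lies at chr17:6278692-6278788 (plus strand, GRCr8), inside the span of Hnrnpk, an RNA-binding protein gene, and gives miR-7a and miR-7a-1*. The second, listed by RefSeq as Mir8, lies at chr1:142215800-142215894 (plus strand), inside the span of the uncharacterised LOC120099863, and gives miR-7a and miR-7a-2*. The third, listed as Mir9, lies at chr9:1167436-1167545 (plus strand), inside the span of Rpl35l3, and gives miR-7b. By this annotation miR-7a sums 2 genes, whereas each minor arm comes from 1 of them. How well the probes tell the 2 minor arms apart was not tested.

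The signal of the family differed more among P10 arrays than the arrays as a whole did. Before scaling, the miR-7a probe used here read 1441, 3401, 11516 and 21902 in P10 (replicates 1 to 4), and 39672, 39043, 48105 and 40413 in adult. That is a 15.2-fold span within P10 and 1.23-fold within adult. The P10 span was 23.1-fold for miR-7a-2*, 14.3-fold for miR-7b and only 4.98-fold for miR-7a-1*. The 75th percentile of the 278 probes above background on every array spanned 4.35-fold within P10 and 1.31-fold within adult. The mean of 8 spike-in probes spanned only 1.14-fold and 1.21-fold. Replicates 1 and 2 were the dimmest P10 arrays on both the miR-7a and the percentile measure. All arrays shared 1 slide and 1 scan, and each age filled a column of its own, so that position on the slide and age cannot be told apart. Values are listed by replicate from 1 to 4 throughout.

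**Figure D1:**
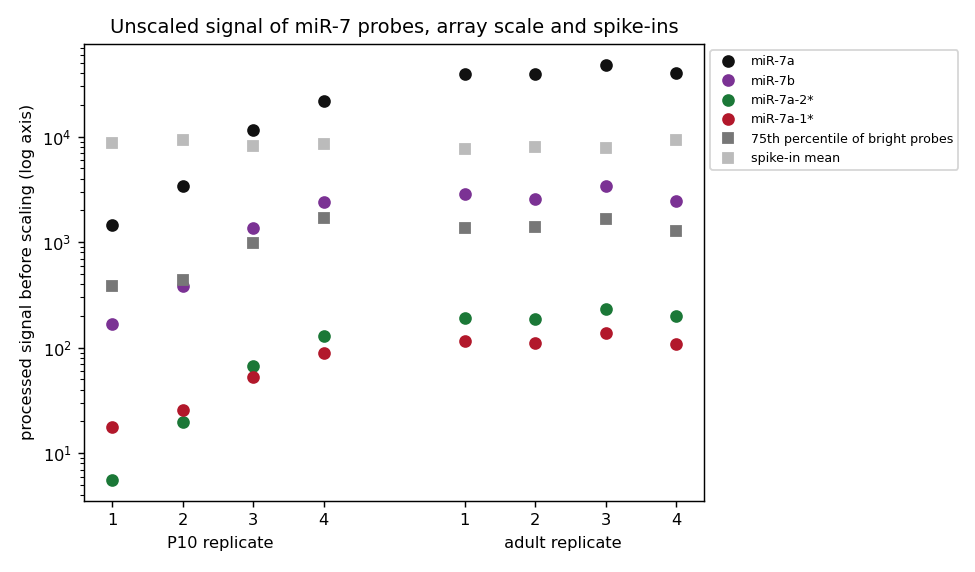
Processed signal before scaling (log axis) for the probe used for each miR-7 product, with the 75th percentile of bright probes and the spike-in mean, on P10 and adult replicates 1 to 4. miR-7a runs from 1441 to 21902 across P10 and from 39043 to 48105 across adult arrays, while the spike-ins stay between 7723 and 9382.

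Relative to the bulk of measured miRNAs, adult islets held more of all 4 miR-7 products than P10 islets, a direction that turned in 1 setting for 1 product (miR-7a-1* with normexp background correction, -0.11). miR-7a, the guide of Mir7-1 and Mir7a-2, rose 3.61-fold, its minor arm miR-7a-2* 3.00-fold, miR-7b 2.13-fold and miR-7a-1* 1.59-fold. All 4 passed the test and in all 4 every adult array lay above every P10 array. Among all 238 tested miRNAs, 27.3% were called higher in adult and 25.6% had every adult array above every P10 array. A further 20.2% were called lower, 47.5% in all. The 4 products are related in sequence or share a precursor, so they are not 4 separate observations. The test was limma on log2 signals divided by each array's percentile, with Benjamini-Hochberg adjustment over all 238 and a threshold of 0.05.

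miR-7a, the main guide, lay at 1.89, 2.95, 3.54 and 3.70 (log2 scaled signal) across the P10 arrays, and at 4.87, 4.80, 4.84 and 4.98 across the adult arrays. The adult arrays were nearly level and the P10 arrays were spread, with replicate 1 lowest, and the lowest adult value stood 1.11 above the highest P10 value. The means were 3.02 ± 0.82 in P10 and 4.87 ± 0.075 in adult (SD, n = 4 per age). The difference was 1.85 ± 0.37 (SE, limma adjusted p = 0.00394). Of the 238 signed differences, ordered from the highest in adult, it was number 12. It shrank to 1.25 ± 0.094 with P10 replicates 3 and 4 alone, and kept its call there (limma adjusted p = 0.000114). That fit left out the other P10 arrays and with them most of the P10 spread, which its SE and p do not measure.

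miR-7b, the guide that differs from miR-7a in a single base, lay at -1.20, -0.20, 0.46 and 0.52 across the P10 arrays, and at 1.08, 0.89, 1.03 and 0.93 across the adult arrays. The order of the P10 arrays was that of miR-7a, and the ages were 0.37 apart at their nearest. The means were -0.11 ± 0.80 and 0.98 ± 0.090 (SD, n = 4 per age), a difference of 1.09 ± 0.36 (SE, limma adjusted p = 0.039). This call was the weakest of the 4. It was lost without P10 replicate 2 (1.06, adjusted p = 0.0878) and without adult replicate 1, 2, 3 or 4 (1.06, 1.12, 1.07 and 1.11), and the difference fell to 0.72 without P10 replicate 1, still called (limma adjusted p = 0.0186). With P10 replicates 3 and 4 alone it was 0.49 ± 0.092 (limma adjusted p = 0.00429), again without most of the P10 spread.

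miR-7a-2*, the minor arm of Mir7a-2, lay at -5.51, -4.48, -3.89 and -3.72 across the P10 arrays, and at -2.83, -2.89, -2.84 and -2.70 across the adult arrays. It was well above background on all 4 adult arrays but only on P10 replicates 3 and 4. On P10 replicate 1 it sat at the floor of -5.51 to which faint signals were raised, and its spots there varied by 68% (coefficient of variation), so the size of the change depends partly on near-background signal. The means were -4.40 ± 0.81 and -2.81 ± 0.082 (SD, n = 4 per age), a difference of 1.58 ± 0.36 (SE, limma adjusted p = 0.00806). Over the P10 arrays that measured it, replicates 3 and 4, the difference was 0.99 (limma adjusted p = 0.000354), also without most of the P10 spread. The call was lost with normexp background correction (0.40, limma adjusted p = 0.0688).

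miR-7a-1*, the minor arm of Mir7-1, was the exception in its P10 pattern on the probe used here. It lay at -4.45, -4.09, -4.24 and -4.26 across the P10 arrays and at -3.55, -3.66, -3.59 and -3.56 across the adult arrays. P10 replicates 1 and 2 averaged -4.27 and replicates 3 and 4 averaged -4.25, whereas for miR-7a the pairs stood at 2.42 and 3.62. The means by age were -4.26 ± 0.15 and -3.59 ± 0.053 (SD, n = 4 per age), a difference of 0.67 ± 0.11 (SE, limma adjusted p = 0.00144). The arm was faint, with an unscaled signal of 17.7 on P10 replicate 1, where it was not well above background, and of 109.1 to 139.2 on adult arrays. With another background correction, normexp, the direction turned (-0.11, limma adjusted p = 0.721).

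**Figure D2:**
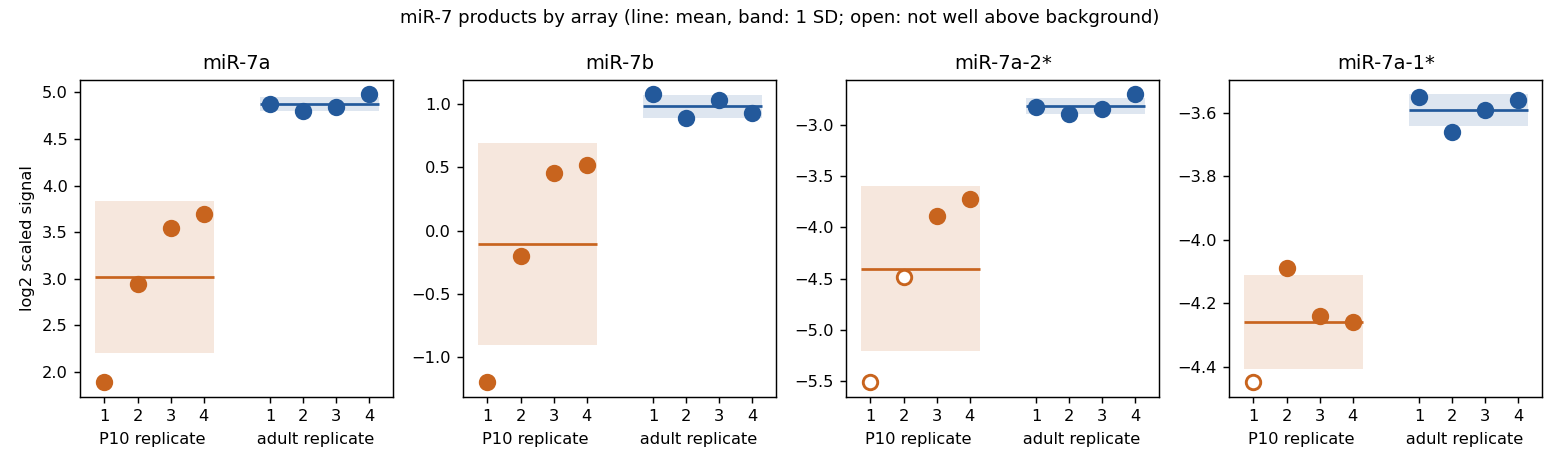
Log2 scaled signal of each miR-7 product on P10 and adult replicates 1 to 4, with the mean of each age as a line and 1 SD as a band. Filled points were well above background and open points were not. In each panel all adult points lie above all P10 points, and P10 replicate 1 is lowest in every panel.

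Several probes read each product, and they bear on how firm each change is. The 2 miR-7a probes differed by 1.85 and 1.87 between the ages, and both were above background on all 8 arrays. The miR-7b probe used here differed by 1.09 and a second by 1.01, both above background on all 8 arrays. Another, above background on 7 arrays, differed by 0.61 with overlapping ages, and the fourth was at the floor on every array. For miR-7a-2* the second probe gave 1.08, with 2 arrays at the floor, against 1.58. For miR-7a-1* the second gave 0.58, with 3 arrays at the floor, against 0.67, and the other 2 probes were never above background. Repeat spots of the probe used varied by 3.37% to 7.68% within an array for miR-7a and by 2.16% to 11.9% for miR-7b.

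The changes of the members were then set against each other. Differences between 2 members within an array drop any constant factor of that array, and they were compared between ages for all 6 pairs with an exact two-sided permutation test. With 4 arrays against 4, the smallest p it can give is 0.0286, or 0.0343 after adjustment over the 6 pairs when 5 of them reach it, and without any 1 array the smallest is 0.0571. The level of 1 probe was not set against that of another, since probes differ in affinity.

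Under the scaling used here miR-7a rose more than miR-7b, while the sign of that excess turned with cyclic loess over all probes and in the authors' value table. Their within-array log2 difference was 3.09, 3.15, 3.08 and 3.18 across the P10 arrays, and 3.79, 3.91, 3.81 and 4.05 across the adult arrays. The 4 P10 values were nearly equal although miR-7a itself spanned 3.49-fold there after scaling, and all adult values were higher. The shift was 0.76 ± 0.063 (SE, n = 4 per age, exact permutation p = 0.0286, adjusted p = 0.0343), a 1.70-fold excess of the miR-7a change. It was also 0.76 with P10 replicates 3 and 4 alone, where the smallest p is 0.133. Across 6 combinations of miR-7a and miR-7b probes it was 0.76 to 1.26, and the ages did not overlap in any of them. That the 2 guides differ at A10U only leaves some cross-hybridisation between their probes possible, and its part in this shift was not tested.

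The excess of miR-7a over miR-7b was not seen where arrays were scaled by rank or by a curve in intensity. It was 0.0042 with quantile normalization (exact permutation p = 1), 0.24 with cyclic loess on bright probes (exact p = 0.0857), -0.078 with the same curves over all probes (exact p = 0.486) and -0.23 in the authors' value table (exact p = 0.114). In that table, whose columns share 1 set of sorted values, miR-7a held the column maximum of 14.10 on all 4 adult arrays and on P10 replicates 3 and 4. It stood below it on P10 replicates 1 and 2 (11.72 and 13.11). No difference among those 6 arrays can show there, and the same miRNA reached the highest value of 5 of 8 arrays after quantile normalization of the probes. The age difference of miR-7a was 0.84 in the authors' table (limma adjusted p = 0.21), 0.95 after quantile normalization (adjusted p = 0.113) and 0.83 after cyclic loess over all probes (limma adjusted p = 0.228).

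Against its own minor arms miR-7a behaved in 2 ways. The miR-7a signal holds the guides of both Mir7-1 and Mir7a-2, so neither difference compares the strands of 1 duplex alone. The difference between miR-7a and miR-7a-2*, the arm of Mir7a-2, was 7.40, 7.43, 7.43 and 7.41 across the P10 arrays, and 7.70, 7.69, 7.68 and 7.67 across the adult arrays. The shift of 0.27 ± 0.0099 (SE, n = 4 per age, exact permutation p = 0.0286, adjusted p = 0.0343) was small, and the value on P10 replicate 1 is set by the floor. With a floor 1 log2 unit lower the shift was 0.11 (exact p = 0.657), and its sign turned after quantile normalization (-0.83), cyclic loess on bright or all probes (-0.99 and -0.88) and in the authors' table (-0.74). On the arrays that measured both products the values were 7.43 and 7.41 in P10 and 7.67 to 7.70 in adult.

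The difference between miR-7a and miR-7a-1*, the arm of Mir7-1, was 6.34, 7.05, 7.78 and 7.95 across the P10 arrays, and 8.42, 8.46, 8.43 and 8.53 across the adult arrays. Here the P10 arrays were spread over more than a log2 unit and all lay below the adult arrays. The shift was 1.18 ± 0.37 (SE, n = 4 per age, exact permutation p = 0.0286, adjusted p = 0.0343). It was 0.59 with P10 replicates 3 and 4 alone, where p cannot pass, and it was lost with cyclic loess over all probes (0.037) or turned with quantile normalization (-0.045), cyclic loess on bright probes (-0.17) and the authors' table (-0.033). On P10 replicates 1 and 2 the arm read 17.7 and 25.7 before scaling, its lowest signals of the 8 arrays, and the part of background in the P10 spread was not tested.

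The arms also differed from each other. miR-7a-1* minus miR-7a-2* was 1.06, 0.39, -0.35 and -0.54 across the P10 arrays, and -0.72, -0.77, -0.75 and -0.86 across the adult arrays. All P10 values were higher, and those of replicates 3 and 4, the arrays on which both arms were measured, were nearest to adult. The shift of -0.91 ± 0.37 (SE, n = 4 per age, exact permutation p = 0.0286, adjusted p = 0.0343) was -0.33 with P10 replicates 3 and 4 alone, where the smallest p is 0.133. miR-7a-2* minus miR-7b shifted by 0.49 ± 0.067 (adjusted exact permutation p = 0.0343), but by 0.049 without scaling and 0.037 with spike-in scaling (exact p = 0.943 and 0.914), and it turned to -0.59 with normexp (exact p = 0.371). miR-7a-1* minus miR-7b shifted by -0.42 ± 0.36 and did not pass (exact permutation p = 0.429).

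**Figure D3:**
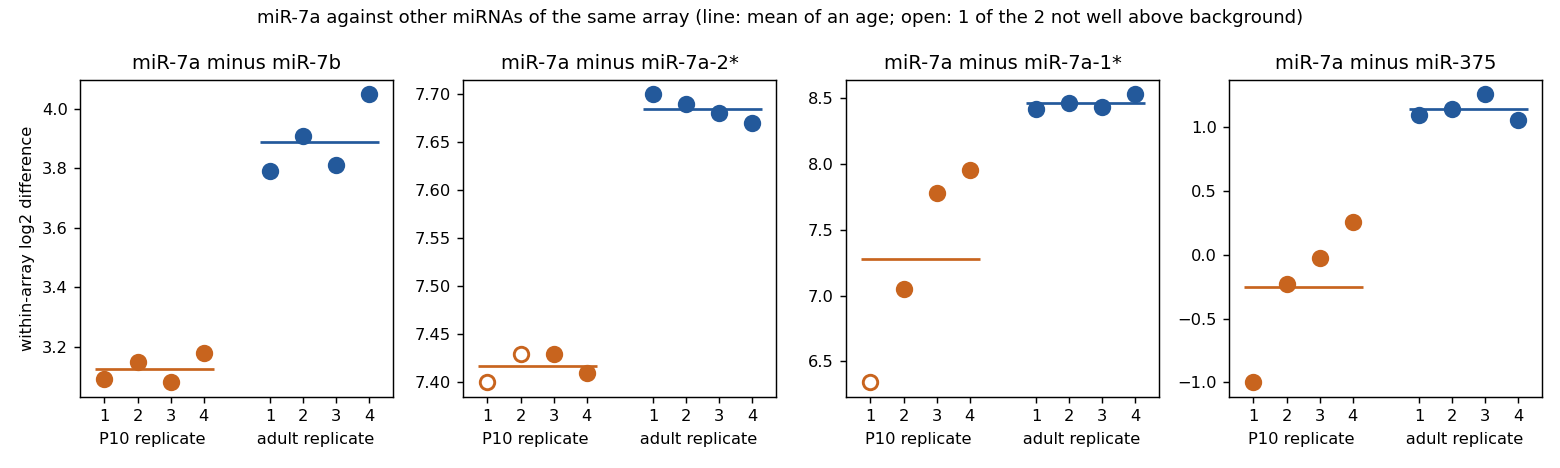
Within-array log2 difference between miR-7a and miR-7b, miR-7a-2*, miR-7a-1* or miR-375 on P10 and adult replicates 1 to 4, with the mean of each age as a line. Open points mark arrays on which 1 of the 2 miRNAs was not well above background. In each panel the adult points lie above all P10 points under the scaling used here, by 0.76 on average for miR-7b, 0.27 for miR-7a-2*, 1.18 for miR-7a-1* and 1.39 for miR-375.

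The rise of miR-7a was set beside other islet miRNAs. Their list was drawn up with earlier results of these data known, so its counts are a description only. Of 16 listed miRNAs with a known link to islet endocrine cells, members of the family left out, 11 were tested. Of these, 8 rose and none fell, beside 27.3% of all 238 called higher. Their median difference was 0.92 against -0.014 over all 238. The count of rises was 2 after cyclic loess over all probes, where 5.88% of all were called higher. With P10 replicates 3 and 4 alone it was 8, beside 30.7% of all. miR-375, the best known islet miRNA, differed by 0.47 ± 0.17 (SE, limma adjusted p = 0.0485), a sign that turned with quantile normalization (-0.30), cyclic loess on bright probes (-0.28) and the authors' table (-0.41). Its call was lost without P10 replicate 1 (0.34) or 2 (0.44) or adult replicate 1, 2, 3 or 4 (0.45, 0.49, 0.51 and 0.41), and with P10 replicates 3 and 4 alone the difference was 0.23 (limma adjusted p = 0.139). miR-204, which acts on the insulin regulator MafA, differed by 1.91 ± 0.24 (limma adjusted p = 0.000371). miR-153, known for targets in secretory vesicles, differed by 1.61 ± 0.38 (limma adjusted p = 0.00882), and by 0.73 with cyclic loess over all probes (limma adjusted p = 0.21).

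miR-7a rose more than miR-375 on the same arrays. The within-array difference was -1.0, -0.23, -0.024 and 0.26 across the P10 arrays, and 1.10, 1.14, 1.26 and 1.06 across the adult arrays. The ages did not overlap, and the shift was 1.39, with means of -0.25 ± 0.54 in P10 and 1.14 ± 0.084 in adult (SD, n = 4 per age, exact two-sided permutation p = 0.0286, adjusted p = 0.0429 over the 3 endocrine miRNAs compared). This comparison was chosen after the values had been seen. Unlike the excess over miR-7b, it was 1.25 with quantile normalization, 1.32 with cyclic loess on bright probes and 1.26 in the authors' table (each exact p = 0.0286), and it was 0.56 with cyclic loess over all probes (exact p = 0.0571). With P10 replicates 3 and 4 alone it was 1.02. The shift against miR-204 was -0.062 (exact p = 0.771), with P10 values of 4.90 to 5.65 around adult values of 5.13 to 5.36, and 13 other settings gave -1.08 to 0.46. That against miR-153 was 0.24 (exact p = 0.0286, adjusted p = 0.0429), from -0.93 to 0.65 in the same settings.

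The miRNAs whose pattern lay nearest to miR-7a over the 8 arrays, members left out, were miR-384-5p (Pearson r = 0.999), miR-129 (0.998), miR-129-2* (0.995), miR-153 (0.992) and miR-325-3p (0.99), of 234 compared. Among the members, r with miR-7a was 0.998 for miR-7a-2*, 0.968 for miR-7b and 0.922 for miR-7a-1*, and the median over the 234 was -0.0957. All these values share the arrays, their scaling and the age difference, and r is given as a description. With each array taken as a deviation from its own age mean, the nearest were miR-384-5p (0.998), miR-325-3p (0.996), miR-129 (0.991), miR-340-5p (0.987) and miR-301a (0.983). The last 2 were low on P10 replicates 1 and 2 as miR-7a was but did not pass the test between ages, with differences of 0.75 (limma adjusted p = 0.118) and -0.023 (limma adjusted p = 0.967). In the same measure miR-7b reached 0.988 and miR-7a-1* only 0.584.

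Markers of other cell types moved with some of these arrays. Linear scaled signals of each marker list were summed by array. The endocrine list (6 of 6 tested) summed to 8.89, 11, 14 and 13.1 by P10 replicate and to 16.6 to 19.4 in adult, without overlap. Most of this sum was miR-375, the brightest of the list, at 2.89 to 3.57 (log2 scaled) in P10 and 3.59 to 3.91 in adult. The acinar list (3 of 3 tested) summed to 0.961 and 0.801 on P10 replicates 1 and 2, where miR-7a was lowest, to 0.0807 and 0.066 on replicates 3 and 4, and to 0.23 to 0.46 in adult. Acinar miR-216a was at the floor on P10 replicate 4 only, and miR-216b-5p and miR-217 on replicates 3 and 4. Without P10 replicates 1 and 2 the rise of miR-7a was 1.25, as given above.

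The gut epithelium list (3 of 3) summed to 1.11 to 13.5 in P10 and 0.28 to 0.508 in adult, with miR-192 at a difference of -2.78 (limma adjusted p = 0.0107) and miR-215 at the floor on all adult arrays. The call of miR-192 was lost after cyclic loess over all probes (-0.74), by spike-ins (-1.73), unscaled (-1.82) and without a filter. The endothelial list (2 of 2) ran from 2.34 to 4.71 in P10 and from 2.92 to 3.32 in adult, with miR-126 at -0.15 (limma adjusted p = 0.64). The mesenchymal list (5 of 5) ran from 4.27 to 7.38 and from 5.10 to 7.11, with miR-143 at 0.93 (limma adjusted p = 0.0485, lost without any 1 array except P10 replicate 4, at 0.72 to 1.05). Its miR-199a-5p (-1.75), miR-199a-3p (-1.62) and miR-214 (-1.64) fell (limma adjusted p = 2.75e-05, 0.000141 and 0.000168), lower on all 4 adult arrays than on any P10 array, a difference that the summed level does not show. These 3 lost their calls when arrays were left unscaled (-0.79, -0.66 and -0.68) or scaled by spike-ins (-0.70, -0.57 and -0.59), and miR-199a-3p also after cyclic loess over all probes (-0.67). The leukocyte list (4 of 5 on the array) ran from 0.721 to 3.64 and from 1.24 to 1.58, with miR-142-3p at 0.99 (limma adjusted p = 0.323). Its P10 values were -2.22, -1.67, -2.07 and 1.36, replicate 4 standing apart. In the same list miR-142-5p differed by 0.85, miR-223 by 0.10 and miR-150 by -0.74, none of them called. The erythroid list (2 of 3 on the array) ran from 0.147 to 0.253 and from 0.25 to 0.652, with miR-451 at 1.47 (limma adjusted p = 0.00859). The part of these cell types in the miR-7 differences was not tested.

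How large the rise of each product was depended on the scaling. The median log2 difference over all tested miRNAs was -0.014 here, 0.45 with the percentile over all probes, 0.94 without scaling, 1.03 with spike-in scaling, 0.24 with cyclic loess on bright probes, 0.11 with quantile normalization and -0.28 with normexp. miR-7a itself differed by 1.85 here and by 2.32, 2.81, 2.90, 1.04, 0.95 and 1.89 in those settings in turn, above the median in each. Its call was kept in all of these except quantile normalization. The number of products called is given beside the share of all tested miRNAs called higher in that setting. All 4 were called under the scaling used here (27.3%) and with the percentile over all probes (37.8%). Without scaling (25.6%), with cyclic loess on bright probes (29.8%) and with spike-in scaling (24.8%), 3 were called. With quantile normalization (23.1%), normexp (13.9%) and the authors' values (24.8%), 2 were called. With cyclic loess over all probes (5.88%), only miR-7a-2* was called, and calls were also fewer among all miRNAs. No called member was lower in adult in any setting run.

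**Figure D4:**
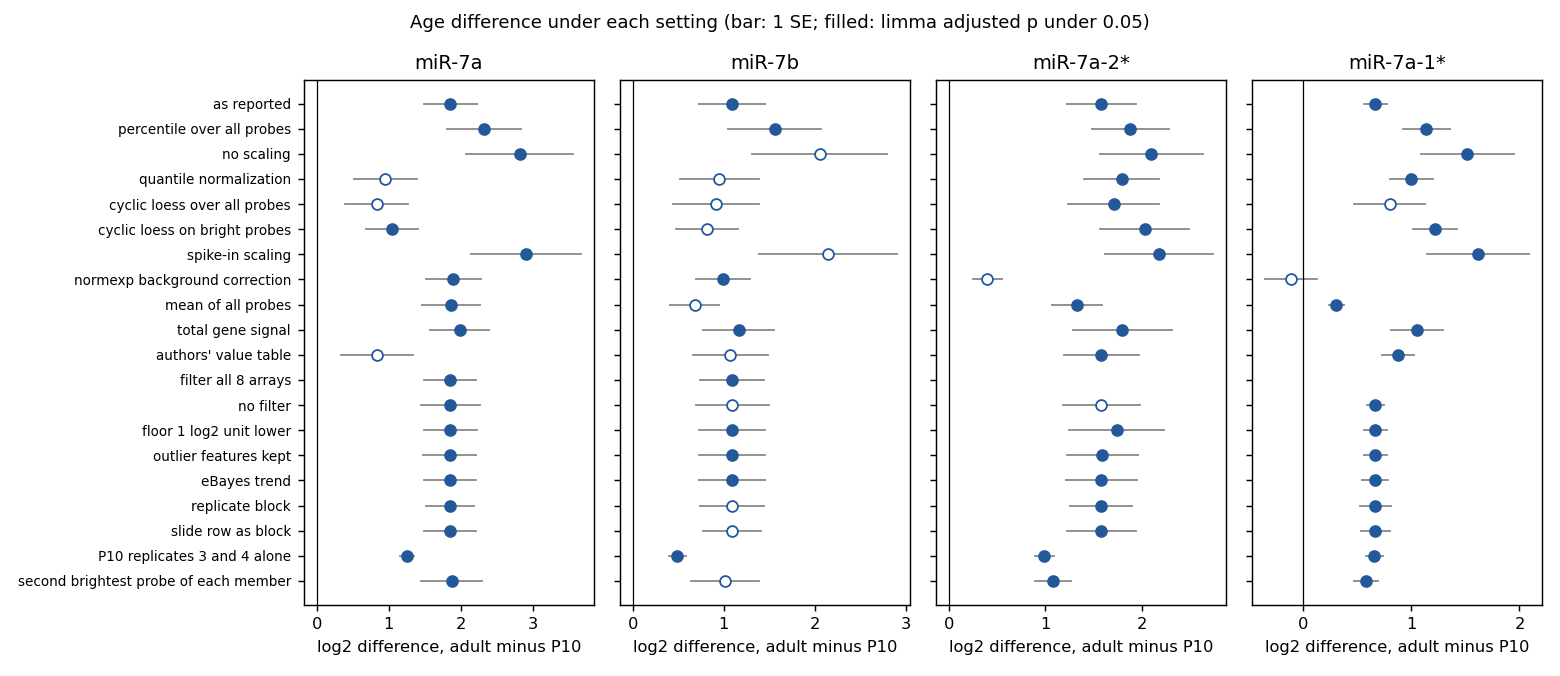
Log2 difference (adult minus P10) of each miR-7 product under each setting, with bars of 1 SE and filled points where the limma adjusted p was under 0.05. Leaving out single arrays is not shown. The differences of miR-7a run from 0.83 to 2.90 and those of miR-7b from 0.49 to 2.14, and the only value below 0 is that of miR-7a-1* with normexp (-0.11).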

How the data were processed

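The deposited scanner files hold intensity values, per the file headers already background-subtracted (Agilent Feature Extraction 10.7.3.1) and not scaled between arrays. The authors' value table holds 1 log2 value for each of 311 miRNAs and each array. Its normalization was not given in the sources used here. All columns had the same sorted values (tolerance 0.01) and a median of 6.54. Each followed the order of that array's total gene signal, which settles direction but not scale.

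Spots flagged as outliers were dropped (2.34% to 3.65% per array; none was saturated) and the others averaged by probe. Each array was divided by its 75th percentile over 278 bright probes, raised to a floor of -5.51 (log2; taken from the 1st percentile of bright signals) and log2 transformed. A miRNA was represented by its brightest probe and tested if well above background on 4 or more arrays of 8, with limma 3.58.1 in R 4.3.3. The number of arrays limits the precision. The limma step was tested on simulated data with an equal spread at both ages, which the members of the family did not have.

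The members, lists and tests were chosen with earlier results of these data known. Named miRNAs were the members, the 5 nearest to miR-7a by each of 2 correlations, 3 endocrine miRNAs, and the brightest marker of each cell type list. miR-215, miR-216b-5p, miR-217, miR-199a-5p, miR-199a-3p, miR-214, miR-142-5p, miR-223, miR-150, miR-3065-5p and the comparisons of miR-7a with the endocrine miRNAs were added after values had been seen. Alternatives covered scaling, background correction, probe summary, filter, floor, variance trend, blocks and left-out arrays. The planned normexp correction used median signals.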

Additional observations from a re-analysis of the deposited data

How the results depend on the processing

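The 4 age differences and the 6 within-array shifts kept their direction and their side of the threshold except as follows, each pair being the change of the first member minus that of the second. With quantile normalization, miR-7a (0.95) and miR-7b (0.95) lost their calls, 2 members stayed called, and the shifts were -0.045 (miR-7a and miR-7a-1*), -0.83 (miR-7a and miR-7a-2*), 0.0042 (miR-7a and miR-7b), -0.79 (miR-7a-1* and miR-7a-2*), 0.049 (miR-7a-1* and miR-7b) and 0.84 (miR-7a-2* and miR-7b), none past an adjusted p of 0.05. In the same order of pairs, cyclic loess over all probes gave 0.037, -0.88, -0.078 and -0.92, with 0.80 for the last pair. There miR-7a (0.83), miR-7a-1* (0.80) and miR-7b (0.91) lost their calls, 1 member stayed called and 33 miRNAs in all were called. The authors' value table gave -0.033, -0.74, -0.23 and -0.71, with 0.51 for the last pair, and miR-7a (0.84) and miR-7b (1.07) lost their calls, leaving 2 members. Cyclic loess on bright probes gave -0.17, -0.99, 0.24, -0.82, 0.41 and 1.23, and miR-7b (0.81) lost its call. With normexp, miR-7a-1* turned (-0.11), miR-7a-2* (0.40) lost its call, 2 members stayed called and the last pair turned (-0.59).

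The call of miR-7b was also lost without scaling (2.05), with spike-in scaling (2.14, with 68 miRNAs called in all), with the mean of all probes (0.68), without a filter (1.09), with slide row as a block (1.09) and on its second probe (1.01). Without a filter miR-7a-2* (1.58) lost its call too, leaving 2 members. A filter requiring all 8 arrays also left 2 members called, since it did not test the minor arms. The last pair was 0.049 without scaling, 0.037 with spike-in scaling and 0.32 with the percentile over all probes. The shift between miR-7a and miR-7a-2* was 0.17 with the total gene signal and 0.11 with a floor 1 log2 unit lower, past no threshold in either. Second brightest probes, chosen as a setting after seeing the data, gave 1.29, 0.79, 0.86 and -0.50, with 0.072 for the last pair. P10 replicates 3 and 4 alone gave 0.59, 0.27, 0.76, -0.33, 0.17 and 0.49, where no pair can pass. Higher and lower calls over all miRNAs numbered 65 and 48 under the scaling used here and 90 and 34 with the percentile over all probes. These calls numbered 61 and 17 unscaled, 59 and 9 by spike-ins, 33 and 47 after normexp and 14 and 19 after cyclic loess over all probes. Quantile normalization gave 55 and 48, cyclic loess on bright probes 71 and 44, and the authors' values 59 and 43.

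Without any single array the differences ranged from 1.48 to 2.08 for miR-7a, 0.61 to 0.73 for miR-7a-1*, 1.21 to 1.81 for miR-7a-2* and 0.72 to 1.30 for miR-7b. The shifts, again in the order above, ranged from 0.87 to 1.40, 0.26 to 0.27, 0.71 to 0.80, -1.14 to -0.61, -0.62 to -0.12 and 0.44 to 0.53, where no p can pass. Between 3 and 4 members and 84 to 138 miRNAs were called. With the replicate block, miR-7b lost its call (1.09, adjusted p = 0.0588, limma), the other 3 members kept theirs and 95 miRNAs were called against 113. Deviations of same-numbered arrays were correlated at 0.177, -0.0896, 0.475 and -0.23, which does not settle whether the numbers pair the arrays. Within-array shifts were not run with blocks, filters or the variance trend. Signal over background limits the minor arms most, on P10 replicates 1 and 2.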
